A study of Mus musculus with 8 samples.

Results

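The heat shock chaperone genes Hspa1a, Hspa1b, Dnajb1, Hsph1, Hspb1, Hsp90aa1 and Hspa8 were followed in the left ventricle of mouse hearts before and after infarction. Their members were all probe sets that the platform annotation gives to one of these genes alone, which came to 17 of the 22626 probe sets on the array and 7 of 12393 genes. All 17 probe sets passed the filter on low signals. The grouping took 4 genes as strongly stress-induced (Hspa1a, Hspa1b, Dnajb1 and Hsph1, 8 probe sets), a pair as stress-induced on a basal level (Hspb1 and Hsp90aa1, 5 probe sets) and Hspa8 as constitutive (4 probe sets).

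RNA came from the left ventricle of male mice, 2 to 4 months old, of the inbred reference strain C57BL/6 and of MRL/MpJ, a strain noted for healing ear punches almost without a scar. In each strain 1 array held an untreated heart sample and 1 array each held samples taken 3, 30 and 60 days after the left anterior descending (LAD) artery had been ligated, an operation that infarcts the ventricle. These 8 groups had 1 array each, 2 untreated and 6 ligated in all. The comparison hearts were untreated rather than sham-operated, so the operation itself and the infarct cannot be told apart. The labels do not give whether an array held 1 animal or a pool, nor how far from the infarct the tissue was cut.

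Heat shock proteins keep other proteins folded. Under heat, lack of oxygen or other protein-damaging stress, heat shock factor 1 binds inverted repeats of the heat shock element upstream of its target genes and raises their transcription, after which the new chaperones hold, refold or pass on unfolded proteins. HSP70 proteins (Hspa1a and Hspa1b, and their constitutive relative Hspa8) work in a cycle with HSP40 partners such as Dnajb1, which deliver substrates and stimulate the ATPase, and with HSP110 proteins such as Hsph1, which release the nucleotide. Hspb1 is a small heat shock protein that holds unfolding proteins without ATP, and Hsp90aa1 is the inducible form of HSP90, which matures kinases and steroid receptors. In the heart, HSP70 and the small heat shock proteins are known for protecting muscle cells during ischaemia.

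Hspa1a (chromosome 17, 34969359 to 34972156) and Hspa1b (chromosome 17, 34956429 to 34959238) lie 10120 bases apart on the minus strand of GRCm38.p6, the RefSeq build from which locations and sequences were taken; the array files carry no coordinates. Their upstream windows are shown because both genes had their highest signals in the same 2 arrays, and that of Hspb1 because it holds the same motif beside a far smaller difference. The brightest probe sets of Dnajb1 and Hsph1 also had their highest signals in those arrays, but their windows are not printed. Each run gives the 250 bases before the annotated start, with the inverted heat shock element pair GAANNTTC in capitals; this motif reads the same on both strands.
Hspa1a, chr17:34972157-34972406, minus strand: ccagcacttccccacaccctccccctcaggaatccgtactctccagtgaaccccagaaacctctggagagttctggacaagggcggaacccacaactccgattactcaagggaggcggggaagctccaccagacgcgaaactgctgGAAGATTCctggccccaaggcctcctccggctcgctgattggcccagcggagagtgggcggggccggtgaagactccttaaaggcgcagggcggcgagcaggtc
Hspa1b, chr17:34959239-34959488, minus strand: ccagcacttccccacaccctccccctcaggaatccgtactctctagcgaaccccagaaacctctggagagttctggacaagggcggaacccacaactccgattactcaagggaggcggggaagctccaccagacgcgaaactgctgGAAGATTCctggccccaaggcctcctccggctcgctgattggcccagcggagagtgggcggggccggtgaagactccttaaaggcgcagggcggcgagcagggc
Hspb1, chr5:135887669-135887918, plus strand: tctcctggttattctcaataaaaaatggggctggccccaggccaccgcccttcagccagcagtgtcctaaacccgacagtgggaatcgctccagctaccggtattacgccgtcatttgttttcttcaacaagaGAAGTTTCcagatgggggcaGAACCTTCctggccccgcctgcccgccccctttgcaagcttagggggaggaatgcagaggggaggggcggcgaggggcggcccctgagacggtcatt
The Hspa1a and Hspa1b windows were identical at 247 of 250 positions (98.8%) and differed by C44T, T47C and T249G, with the base of Hspa1a first and positions counted from 1 at the 5′ end. Both held the pair once, beginning at position -104 from the start, and Hspb1 held it at positions -117 and -97. Of 32851 mouse windows of the same length, 6.69% held GAANNTTC, 7.17% held the other arrangement, TTCNNGAA, and 12.8% held at least one of them. Both windows listed for Hsph1 cover nearly the same bases and reach into the annotated gene. They held the same single TTCNNGAA site, which lies inside that gene. Neither window of Dnajb1 (chromosome 8, plus strand) held any pair. The arrangements share units and can overlap, but none of the 5 members with a window held a run of 3 units, which occurred in 0.466% of windows for each starting unit. Hsp90aa1 and Hspa8 were not scanned. A match describes these letters only.

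The arrays were on a common scale, with trimmed mean signals between 247.1 and 248.2. The C57BL/6 day 30 array stood apart: its correlations with the other 7 arrays ran from 0.844 to 0.877, against 0.884 to 0.948 for the 21 other pairs. Ventricular muscle markers were abundant in every array, with a summed signal of 137895 to 155561 in the untreated and 134081 to 253068 in the ligated arrays and all 7 genes measured. Signals are hybridisation intensities, so one probe set's level was not set against another's. In whole ventricle, fewer cells of a type and less RNA per cell cannot be told apart.

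The inducible HSP70 pair had the lowest values after ligation, relative to untreated, of all genes tested. Hspa1b fell 5.80-fold after ligation, and this was the lowest of 8195 log2 differences. Hspa1a had the second lowest difference, a fitted 3.52-fold, which did not pass the adjusted threshold. Both genes encode nearly the same protein, and their transcripts are so alike that probe sets of one may also hybridise with RNA of the other, so the split between them is uncertain.

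The brightest Hspa1b probe set, 1427127_x_at, read 773.4 and 1894.0 in the untreated hearts of C57BL/6 and MRL/MpJ. On day 3 it read 175.2 and 175.3 in that order, on day 30 84.8 and 129.7, and on day 60 226.4 and 478.0. The lowest untreated reading was thus above the highest ligated one, and the groups did not overlap. The other Hspa1b probe sets gave the same order: 1452318_a_at read 518.5 and 1469.0 untreated and 86.0 to 325.8 after ligation, and 1427126_at read 352.7 and 978.6 against 42.1 to 215.8. The only Hspa1a probe set, 1452388_at, read 322.7 and 770.5 untreated. After ligation it read 135.2, 140.4 and 83.0 on days 3, 30 and 60 in C57BL/6 and 96.3, 86.1 and 233.6 in MRL/MpJ. All 6 ligated arrays were again below both untreated ones.

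**Figure D1:**
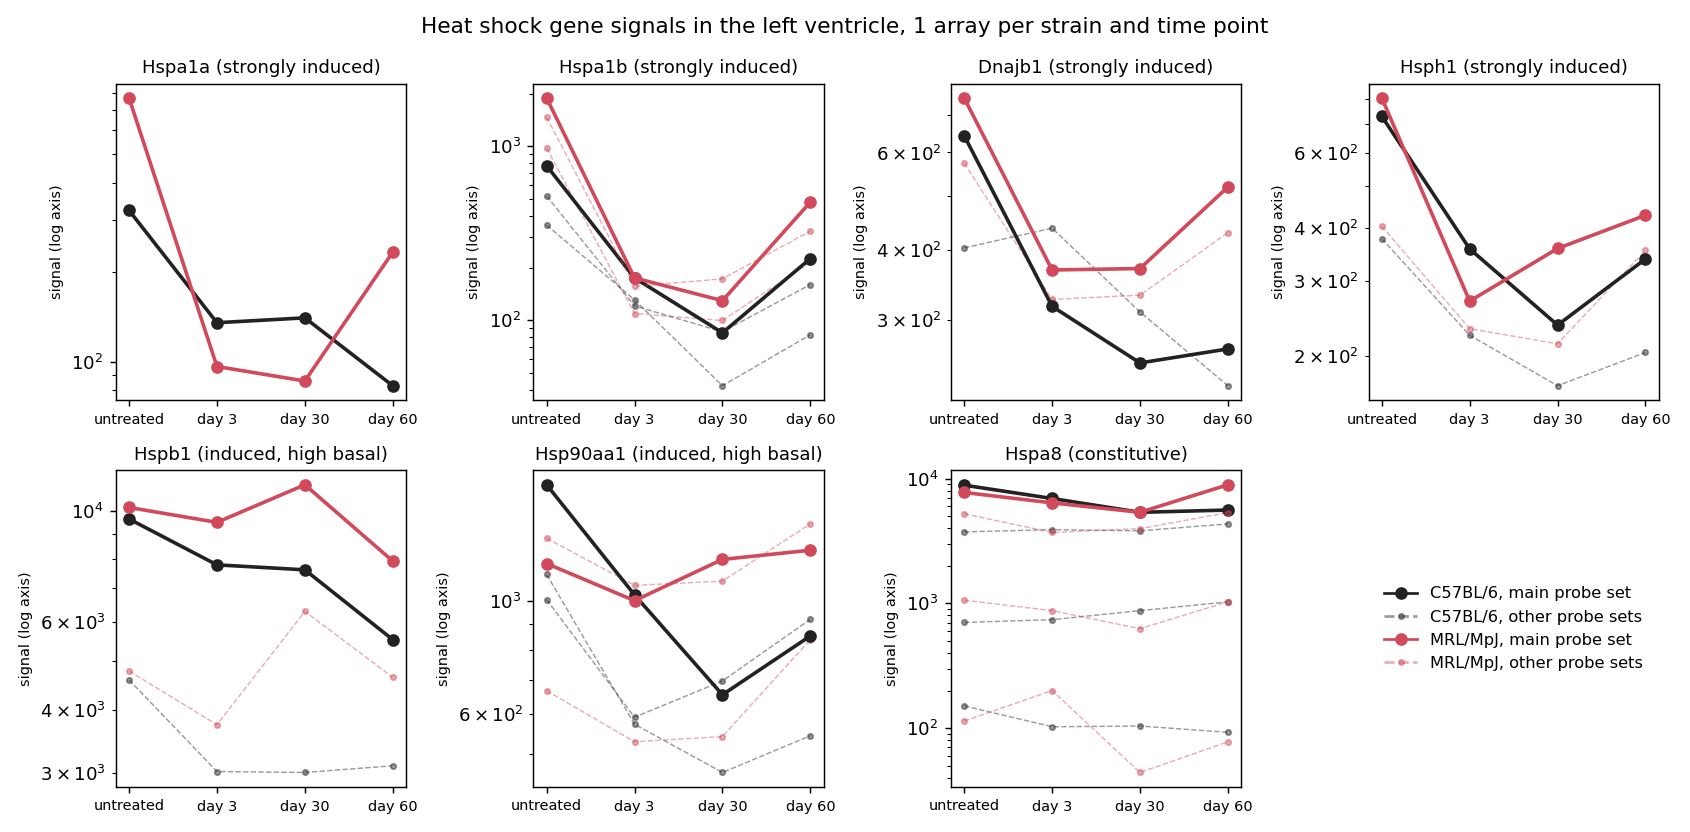
Signal (log axis) of all 17 probe sets in every array, one panel per chaperone gene, by time point and strain; thick lines are the brightest (main) probe set, dashed lines the others, each point is 1 array and there is no error bar. For the main probe sets of Hspa1a, Hspa1b, Dnajb1 and Hsph1 both untreated arrays lie above all ligated arrays, while for Hspb1, Hsp90aa1 and Hspa8 they do not.

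In limma's additive fit of strain and time point, the Hspa1b difference of ligated against untreated was -2.54 on the log2(signal + offset) scale (SE 0.27, 95% interval -3.16 to -1.91), with a Benjamini-Hochberg adjusted p of 0.0337. Hspa1b was the one gene called lower, which is 0.0122% of the genes tested, while 15 genes (0.183%) were called higher. For Hspa1a the limma difference was -1.82 (SE 0.40, interval -2.74 to -0.90) with an adjusted p of 0.130. When every probe set was fitted in its own right, 2 of the 3 for Hspa1b passed, at a limma adjusted p of 0.0396 each, and 1427126_at stood at -2.22 with 0.0663. The Hspa1b call was lost without either untreated array (limma adjusted p of 0.220 without C57BL/6 and 0.478 without MRL/MpJ) and without C57BL/6 day 30 (0.0503), C57BL/6 day 60 (0.0825) or MRL/MpJ day 60 (0.108). It was also lost after quantile normalization (limma adjusted p of 0.0603) and with no filter (0.101), at differences of -2.92 to -2.15 over all settings.

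The HSP70 partners Dnajb1 and Hsph1 ran in the same direction with smaller differences, neither of which passed the adjusted threshold. The brightest Hsph1 probe set, 1425993_a_at, read 730.2 and 806.0 in untreated C57BL/6 and MRL/MpJ. After ligation it read 356.7, 236.3 and 337.8 in C57BL/6 and 269.0, 357.5 and 427.8 in MRL/MpJ on days 3, 30 and 60. Both untreated arrays were above every ligated array, in the dimmer probe set 1423566_a_at as well (377.1 and 403.2 against 170.3 to 353.7). The limma difference was -1.17 (SE 0.23, adjusted p of 0.0989), the 12th lowest of all genes.

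Dnajb1, read by 1416756_at, stood at 643.2 and 751.9 untreated. Its ligated readings were 317.0, 250.7 and 265.7 in C57BL/6 and 368.6, 370.8 and 520.0 in MRL/MpJ, all below both untreated arrays. The second Dnajb1 probe set, 1416755_at, overlapped: C57BL/6 read 403.9 untreated and 438.4 on day 3, the one increase among the 48 within-strain changes of the strongly induced probe sets. The limma differences of these probe sets were -0.98 (SE 0.22, adjusted p of 0.138 in the gene fit) and -0.48 (adjusted p of 0.581 in the probe set fit).

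Among the 7 genes, 4 had both untreated arrays above all 6 ligated arrays, and these were the 4 strongly induced genes; 7.11% of all genes tested had that order and 6.71% the opposite one. The same 4 genes stood below untreated on every day in both strains, against 11.4% of all genes. At an unadjusted p under 0.05 in limma, 4 of 7 members were lower and none higher, against 4.15% and 6.27% of all genes. Over probe sets, 7 of 17 had untreated arrays that did not overlap with the ligated ones, all of them of strongly induced genes.

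Hspb1 and Hsp90aa1, the pair grouped as stress-induced on a basal level, showed no difference that passed the adjusted threshold. Hspb1 (1422943_a_at) read 9626.4 and 10149.2 untreated in C57BL/6 and MRL/MpJ. In C57BL/6 it read 7795.1, 7619.4 and 5527.1 on days 3, 30 and 60, all below untreated, while MRL/MpJ read 9476.6, 11265.8 and 7931.6, with day 30 the highest of all 8 arrays. Its limma difference was -0.29 (SE 0.20, 95% interval -0.75 to 0.17, adjusted p of 0.654).

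Hsp90aa1 (1438902_a_at) read 1695.9 in untreated C57BL/6 and 1028.6, 653.6 and 853.7 on days 3, 30 and 60. MRL/MpJ read 1185.9 untreated and 1002.0, 1208.5 and 1259.9 after ligation. The C57BL/6 arrays after ligation were thus all lower than untreated, and the MRL/MpJ arrays lay on both sides of it. The limma difference over both strains was -0.52 (SE 0.28, 95% interval -1.18 to 0.14, adjusted p of 0.570). The probe sets did not rank the untreated strains alike: 1426645_at read 1128.6 in C57BL/6 and 665.6 in MRL/MpJ, and 1437497_a_at read 1007.0 and 1330.4.

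The constitutive Hspa8, whose protein HSC70 serves routine folding and clathrin uncoating, also overlapped between groups. Its brightest probe set, 1420623_x_at, read 8884.3 and 7766.7 untreated, 6947.0, 5381.2 and 5610.2 in ligated C57BL/6 and 6404.1, 5384.7 and 8951.4 in ligated MRL/MpJ on days 3, 30 and 60. MRL/MpJ on day 60 was the highest reading of all. The limma difference was -0.39 (SE 0.23, 95% interval -0.92 to 0.15, adjusted p of 0.600), and the other 3 probe sets stood between -0.36 and -0.02.

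The roles were also set side by side as changes within a strain on the log2(signal + offset) scale (1 array against 1, with no test). In the 8 strongly induced probe sets, 47 of 48 changes from untreated were below 0 and 31 were 2-fold lower or more, with a median log2 change of -1.26 and a range of -3.60 to 0.11. In the basal pair 24 of 30 changes were below 0, 3 of them 2-fold, with a median of -0.33. In Hspa8 15 of 24 were below 0 and 0 reached 2-fold, with a median of -0.32 and a range of -0.97 to 0.68. The lowest was that of the dim probe set 1431182_at in MRL/MpJ on day 30, which read 113.8 untreated and 44.0 ligated, a plain signal ratio of 2.59. All 18 changes of the Hspa1b probe sets and all 6 of Hspa1a were at least 2-fold. After subtraction of the Hspa8 change of the same array pair, all 6 changes stayed below 0 in Hspa1b (median -2.12), Hspa1a (-1.40), Hsph1 (-0.71) and Dnajb1 (-0.58), whereas Hsp90aa1 had 4 of 6 and Hspb1 2 of 6 below 0. Over all genes tested, 46.3% to 56.4% were below untreated in an array pair, and 1.33% to 6.94% were at least 2-fold lower. No such share was computed for the changes after subtraction of Hspa8. The 3 days of a strain share its untreated array, and probe sets of the same gene are counted separately. These changes are thus not independent of one another.

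**Figure D2:**
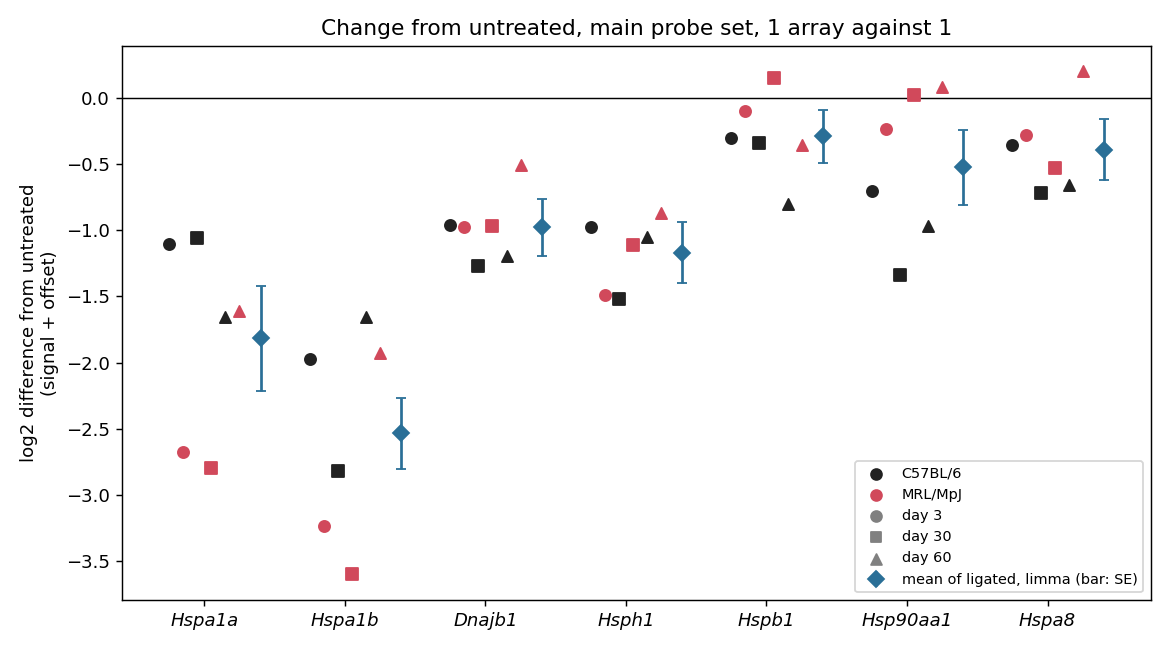
Log2 change from the same strain's untreated array for the brightest probe set of each gene, 1 array against 1, with colour for strain and shape for day; diamonds are the limma difference of ligated against untreated with its SE, and 0 marks no change. All 6 changes lie below 0 for Hspa1a, Hspa1b, Dnajb1 and Hsph1, and the diamonds run from -2.54 for Hspa1b to -0.29 for Hspb1.

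**Figure D3:**
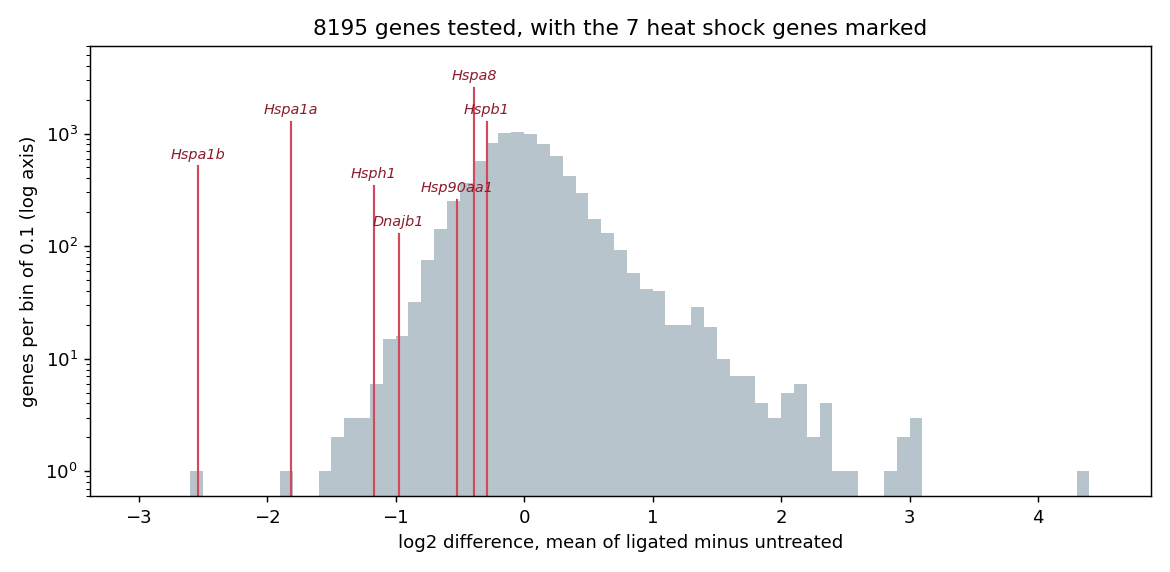
Number of genes (log axis) by limma log2 difference of ligated against untreated over 8195 genes, with red lines at the 7 chaperone genes; the height of a line has no meaning. Hspa1b at -2.54 and Hspa1a at -1.82 are the lowest values, and Hspb1, Hspa8 and Hsp90aa1 lie between -0.52 and -0.29.

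By day, the Hspa1b difference from untreated was -2.61 on day 3, -3.21 on day 30 and -1.79 on day 60, with limma adjusted p of 0.0637, 0.0586 and 0.118. Hspa1a stood at -1.89, -1.93 and -1.63, Hsph1 at -1.23, -1.32 and -0.96, and Dnajb1 at -0.97, -1.12 and -0.85. Over both strains and in the brightest probe sets, all 4 genes thus had their lowest value on day 30 and their value nearest to untreated on day 60. The second Dnajb1 probe set, 1416755_at, was instead nearest on day 3 and lowest on day 60 (-0.33, -0.55 and -0.57). The brightest Hspa1b probe set was lowest on day 30 and nearest on day 60 in both strains. It stood at -1.98, -2.82 and -1.65 in C57BL/6 and -3.24, -3.60 and -1.92 in MRL/MpJ. Neither dimmer Hspa1b probe set had that order in both strains. In C57BL/6 1427126_at was nearest to untreated on day 3 (-1.26, -2.43 and -1.78). In MRL/MpJ 1452318_a_at was lowest on day 3 (-3.02, -2.89 and -2.08). The brightest probe sets of Hspa1a, Hsph1 and Dnajb1 did not have that order in both strains. The C57BL/6 day 30 values come from the array that stood apart. In C57BL/6 Hspa1a was farthest from untreated on day 60 (-1.65, against -1.10 and -1.06 on days 3 and 30), and Dnajb1 and Hsph1 were nearest to untreated on day 3 (-0.96 and -0.98). In MRL/MpJ Hsph1 was lowest on day 3 (-1.49), and Dnajb1 was nearly level on days 3 and 30 (-0.975 and -0.967). Over both strains, Hsp90aa1 (-0.47, -0.66 and -0.44) and Hspa8 (-0.32, -0.62 and -0.23) were also lowest on day 30 and nearest on day 60. Hspb1 was lowest on day 60 (-0.20, -0.09 and -0.58). The days share their untreated arrays, and the differences between days were not tested.

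No member passed the limma adjusted threshold on a single day, where 0 genes (0%) were called lower on any day and 0 (0%), 1 (0.0122%) and 3 (0.0366%) higher on days 3, 30 and 60. At an unadjusted p under 0.05 in limma, 4 members were lower on day 3, 4 on day 30 and 5 on day 60, the fifth being Hspb1, with none higher. For all genes the lower shares were 1.99%, 5.23% and 4.42%, and the higher shares 4.54%, 5.77% and 6.16%. With the offset added to both signals, 2, 5 and 4 members within C57BL/6 were at least 2-fold lower on days 3, 30 and 60, against 1.33%, 6.94% and 2.11% of all genes. Within MRL/MpJ the counts were 3, 3 and 2, against 2.64%, 2.51% and 2.86%. In total 19 of 42 changes were 2-fold lower and none was 2-fold higher. As plain signal ratios 4 more passed 2-fold: Hsph1 (2.05) and Dnajb1 (2.03) in C57BL/6 on day 3, and Dnajb1 in MRL/MpJ on day 3 (2.04) and day 30 (2.03).

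The inducible HSP70 genes read higher in MRL/MpJ than in C57BL/6 in the untreated pair and on day 60. In the untreated pair the signal of the 4 Hspa1a and Hspa1b probe sets was 2.39 to 2.83 times as high in MRL/MpJ as in C57BL/6, and on day 60 the ratio was 2.03 to 2.81. On day 3 it ran from 0.712 to 1.29 and on day 30 from 0.613 to 2.37, on both sides of equality. With 1 array per strain and time these ratios have no test. Counted over genes, MRL/MpJ was higher for 5, 3, 6 and 7 of the 7 in the untreated pair and on days 3, 30 and 60, where 50.5%, 53.2%, 44.2% and 48.7% of all genes were higher. With the offset added and for the brightest probe sets, MRL/MpJ was at least 2-fold higher for Hspa1a and Hspa1b untreated, for Hspa1a on day 60 and for none on days 3 and 30, against 1.73%, 1.39%, 3.64% and 6.15% of all genes. Hspa1b on day 60 fell just short on that scale (log2 difference 0.99), while its signal ratio was 2.11.

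Over all 4 time points, no member passed the limma adjusted threshold between strains. Hspa1b stood 0.68 higher in MRL/MpJ (SE 0.23, limma adjusted p of 0.493) and Dnajb1 0.46 higher (adjusted p of 0.602), and among the brightest probe sets these were the only members with an unadjusted limma p under 0.05. Among the dimmer probe sets, both others of Hspa1b, 1437497_a_at of Hsp90aa1 (0.62 higher) and 1425964_x_at of Hspb1 (0.50 higher) also had an unadjusted p under 0.05, with limma adjusted p of 0.280 to 0.567. Of all genes, 0.171% were called lower and 0.0488% higher in MRL/MpJ, and at the unadjusted p 4.25% and 3.71%. The ligation effect itself was lower in MRL/MpJ than in C57BL/6 by a fitted -1.09 for Hspa1a (SE 0.75) and -0.77 for Hspa1b (SE 0.53), and higher by 0.96 for Hsp90aa1 (SE 0.51). Each had a limma adjusted p of 0.99995 and none reached an unadjusted p of 0.05. That test called 0 genes (0%) in either direction, with 1.04% lower and 1% higher at an unadjusted p under 0.05.

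A feature singled out after the values were seen was the MRL/MpJ day 60 array. It was the highest of the 6 ligated arrays for 6 of 7 genes, all but Hspb1, and for 13 of 17 probe sets, against 12.7% of all genes. In MRL/MpJ 6 of 7 members read higher on day 60 than on day 30 (49.4% of all genes did), and in C57BL/6 5 of 7 did (45.4%). For Hspa1b the MRL/MpJ day 60 reading of 478.0 was still below both untreated readings. Each of these orders rests on 1 array and has no test.

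**Figure D4:**
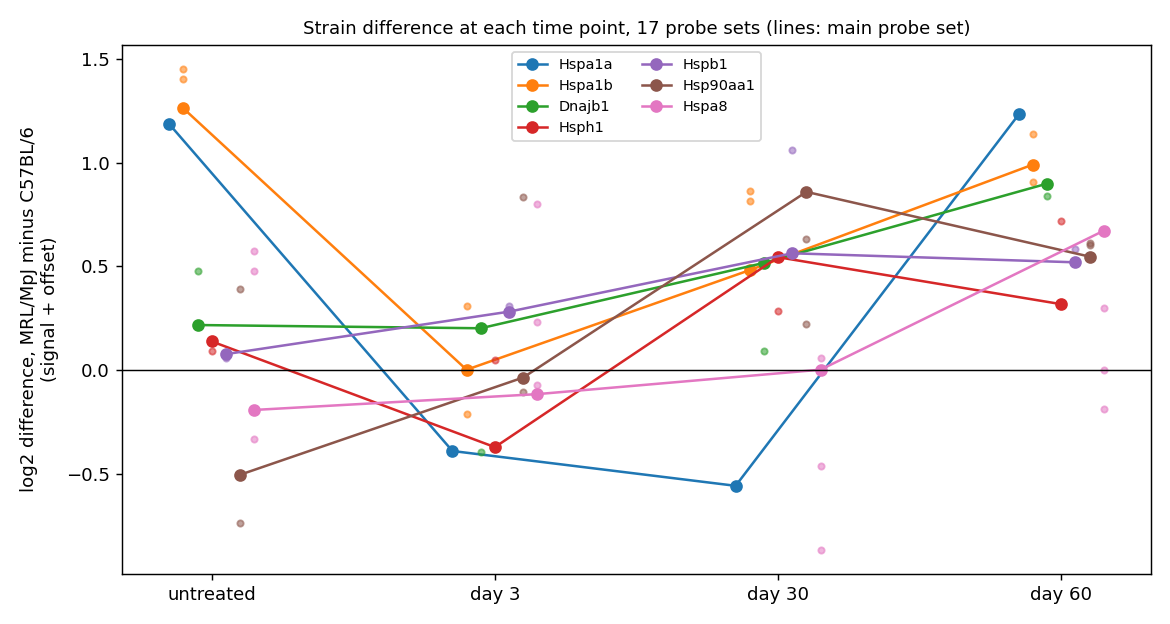
Log2 difference of MRL/MpJ over C57BL/6 at each time point for all 17 probe sets, 1 array against 1, with no error bar; large joined points are the brightest probe set of each gene, small points the others, and 0 marks equal signal. Hspa1a and Hspa1b lie above 1 in the untreated pair, genes lie on both sides of 0 on day 3, and the brightest probe sets of all 7 genes lie above 0 on day 60.

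As lists, other chaperone genes differed less. The lists of further HSP70, HSP40, small heat shock, HSP90, BAG, heat shock factor, chaperonin, mitochondrial, endoplasmic reticulum and ubiquitin genes held 94 genes, of which 78 passed the filter. Of these, 56 stood below and 22 above untreated, with a median log2 difference of -0.17, beside 53.2% below and a median of -0.03 over all genes. None was called by limma after adjustment, and at an unadjusted p under 0.05 5 of the 78 were lower and 2 higher, beside 4.15% and 6.27% of all genes. Hsp90ab1, Hsf1 and Hspb6 were among 12 listed genes without a probe set of their own in the table and were not analysed here.

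Among the larger of these differences were those of co-chaperones that act with HSP70 and HSP90. Dnaja1, another HSP40 partner, read 827.1 and 1008.3 untreated and 446.9 to 586.8 ligated, with no overlap, for a limma difference of -0.78 (SE 0.20, adjusted p of 0.215). Bag3, the nucleotide exchange factor that links HSP70 to autophagy in muscle, read 2133.9 and 1838.8 untreated and 552.1 to 1369.8 ligated (-0.97, SE 0.33, limma adjusted p of 0.349). Fkbp4, an HSP90 partner, read 1125.7 and 1035.2 against 281.8 to 800.6 (-1.10, SE 0.35, limma adjusted p of 0.319). Stip1, which bridges HSP70 and HSP90, stood at -0.62 (limma adjusted p of 0.306). In these 4 genes all ligated readings were below both untreated ones, an order that 7.11% of all genes tested had. They were named for the size of their differences, so this order was partly built in.

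By list, 12 of 16 HSP40 genes stood below untreated (median -0.23), 8 of 10 HSP90 family and co-chaperone genes (-0.32), 7 of 8 CCT chaperonin genes (-0.24) and 7 of 8 mitochondrial chaperone genes (-0.32), with Hspe1 at -0.71 and Hspd1 at -0.35. In the BAG list 4 of 6 were below (-0.20), in the small heat shock list 4 of 5 (-0.27, with Hspb8 at -0.33 and Cryab at -0.27), and in the heat shock factor list both genes that passed the filter, the factor Hsf4 (-0.16) and the factor-binding protein Hsbp1 (-0.19). The 5 ubiquitin genes stood below 0 at a median of -0.02. The endoplasmic reticulum list ran the other way: 5 of 13 below and a median of 0.11, with Pdia3 at 0.54 and Hspa5, its main HSP70, at -0.22. The other HSP70 genes had a median of 0.00, with Hspa4l at -0.42 and Hspa2 at 1.02, whose untreated C57BL/6 reading of 20.4 was under the offset. No gene named here passed the limma adjusted threshold.

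Immediate early genes, which respond within minutes to stress, mostly had the opposite direction. A part of tissue handling in either group was not tested. Of 18 measured, 15 stood above untreated and 3 below, with a median of 0.30, where 53.2% of all genes stood below. At an unadjusted limma p under 0.05, 5 were higher, beside 6.27% of all genes. Ier3 stood at 1.06 (limma adjusted p of 0.130), Gadd45g at 1.32 (0.388), Egr1 at 1.23 (0.475) and Ier2 at 0.85 (0.271). None passed the adjusted threshold.

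**Figure D5:**
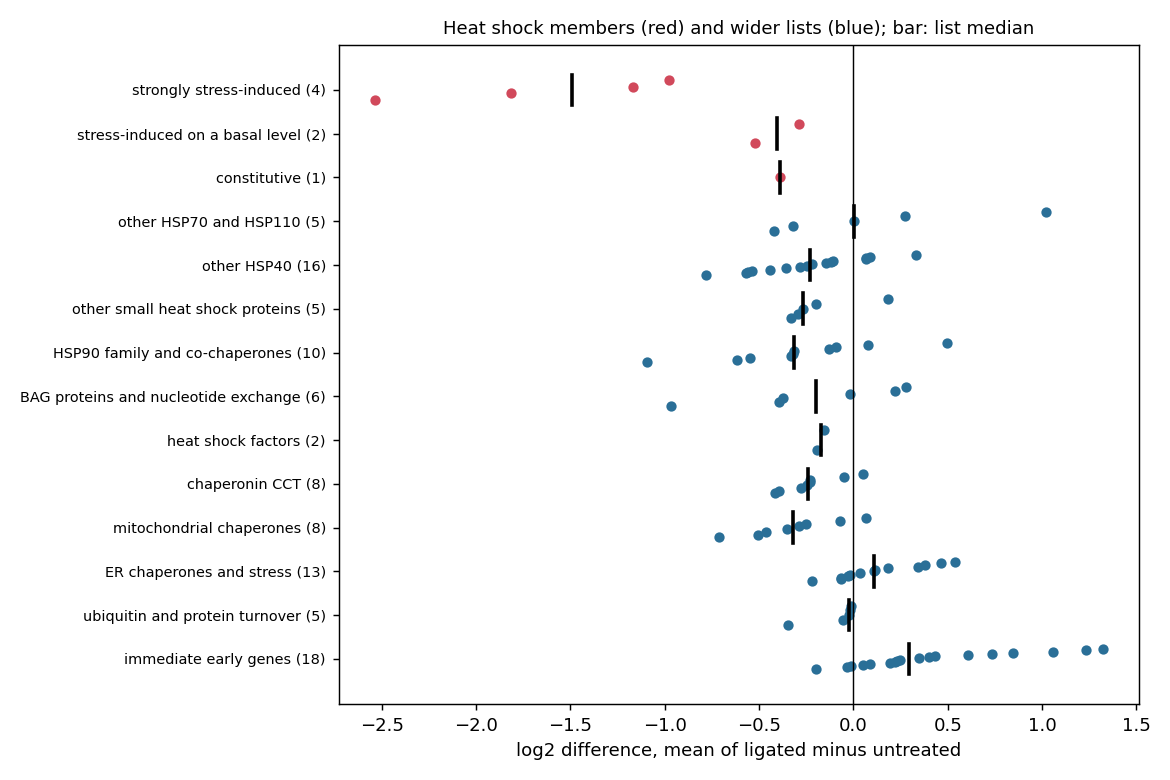
Limma log2 difference of ligated against untreated for the genes of each list, one point per gene, with the median of each list marked and 0 as no difference. The strongly induced members lie lowest, most other chaperone lists have medians between -0.32 and 0.00, and the endoplasmic reticulum and immediate early lists have medians of 0.11 and 0.30.

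Likeness to Hspa1b was measured as the root mean square distance between log2 profiles, each centred on its mean over the 8 arrays; a smaller value is more alike. Among 8194 other genes Hspa1a was the most alike (0.58), Hsph1 ranked 3 (0.78) and Dnajb1 ranked 6 (0.84). Hspa8 ranked 330 and Hsp90aa1 340, each at 1.08, and Hspb1 ranked 2237 (1.23). Outside the 7 genes the nearest were Mmaa (0.77), Ssbp1 (0.81), Ano10 (0.82), Atpaf2 (0.84) and Ubr3 (0.84). Their own ligated differences ran from -1.38 to -0.98, and none was called.

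Markers of some other cells also differed between untreated and ligated arrays. The summed signal of fibroblast markers was 8395 to 8993.4 in the untreated and 18519.5 to 48697.8 in the ligated arrays, highest in MRL/MpJ on day 3. Of these markers, Pdgfra (179.6 to 184.6 untreated and 147.0 to 274.4 ligated) and Lum (787.2 to 1298.3 and 1133.6 to 5193.3) overlapped. The collagens and Dcn did not. Macrophage markers read 2975.1 to 4512.2 against 5519.6 to 8029.2. Among them Csf1r (1195.5 to 1410.7 against 1337.8 to 2584.2) and Cd14 (270.8 to 379.1 against 271.6 to 520.9) overlapped, and the rest did not. Atrial muscle markers read 4631.9 to 7306.8 against 9871.4 to 52358.8. Most of the atrial sum was the natriuretic peptide gene Nppa. The other atrial markers, Myl7, Myl4 and Sln, read below both untreated arrays in MRL/MpJ on day 3 and C57BL/6 on day 60. In the remaining ligated arrays they read above both. Myl7, for example, read 442.3 and 532.5 untreated, 97.6 in MRL/MpJ on day 3 and 11.9 in C57BL/6 on day 60. Endothelial markers read 2937.3 to 3473.2 against 2340 to 2993.8, with a narrow overlap. They did not run alike: Pecam1 read 517.0 to 575.4 untreated and 442.8 to 816.4 ligated, and Cdh5 656.4 to 820.1 and 359.1 to 715.7. Neutrophil (603.6 to 676.2 against 415.4 to 846.5) and T cell markers (180.4 to 238.7 against 116.8 to 445.1) overlapped between the groups, and Camp and Cd3d read below the offset of 28.6 in every array. The part of these cells in the chaperone differences was not tested. The summed ventricular muscle markers overlapped between the groups: the lowest ligated sum, 134081 in MRL/MpJ on day 60, was below both untreated arrays, and the highest, 253068, was that of the C57BL/6 day 30 array, which stood apart.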

How the data were processed

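Total RNA (5 µg per sample) had been extracted with Trizol and biotin-labelled, per the labels. The authors deposited linear signal intensity computed with MAS5, per the submitters' processing notes; the version and scaling target are not given in the sources used here. Probe sets were named through the platform annotation (1 symbol for 20380, several for 691, none for 1555), and the brightest probe set by mean log2 signal stood for a gene. Signals were transformed as log2(signal + 28.6), the offset being the 20th percentile over all arrays, so folds of dim genes are understated. Genes at or above 121, the median, in at least 2 of 8 arrays were kept (8195).

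limma 3.58.1 in R 4.3.3 (lmFit, eBayes) fitted strain and time point with 3 residual degrees of freedom, and strain by ligation with 2, with Benjamini-Hochberg adjustment over all 8195 genes and a threshold of 0.05. No combination of strain and time point was repeated, so P-values rest on the spread left after the fitted terms. In the additive fit this remainder mixes spread between arrays, which may be technical, with any strain difference in the response to ligation or day. These parts cannot be told apart. Every member was named; of each wider list, up to 4 genes with the largest absolute difference could be named, and the 5 genes most like Hspa1b. Members, lists and tests were chosen with earlier results of these data known. Tested on simulated data with the same array layout for ligated against untreated (8195 genes, 200 changed), the fit recovered 40.3% of the 2-fold, 77.6% of the 4-fold and 95.5% of the 8-fold changes, with 4 false calls among 146. The simulated noise was normal and independent, with no strain effect, no difference between days and no array that stood apart. These rates may therefore not hold for the real arrays. Alternatives were the offset, filter, scaling, probe set rule, intensity trend and leaving out each array. Detection calls were not used here.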

Additional observations from a re-analysis of the deposited data

Results flagged for a closer look

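One Hspa8 probe set, 1420622_a_at, ran in opposite directions in the strains. It read 703.6 in untreated C57BL/6 and higher on all 3 days after ligation (740.3, 875.1 and 1029.5), with a mean log2 change of 0.30. In MRL/MpJ it read 1060.7 untreated and lower on all 3 days (875.3, 627.0 and 1030.0), with a mean of -0.35. The difference of MRL/MpJ less C57BL/6 was -0.65. In the limma fit of every probe set this difference had an SE of 0.48 and an adjusted p of 0.99995, so it did not pass the adjusted threshold. The 3 days of a strain share its untreated array, and the brightest Hspa8 probe set did not show this pattern. Another, 1455789_x_at, ran the same way in 5 of 6 changes: 0.058, 0.027 and 0.21 in C57BL/6 and -0.49, -0.39 and 0.032 in MRL/MpJ on days 3, 30 and 60.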

How the results depend on the processing

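Of 742 member differences recomputed under alternatives, 709 kept their direction and side of the threshold, 7 lost a call, 14 gained one and 12 turned direction; the cause was not tested. The 4 genes without overlap stayed 4 in every setting and 4 to 5 leaving out an array. Leaving out an array cannot lower this count, and the offset, filter and intensity trend cannot reorder a probe set's signals. Those alternatives therefore do not test it. The count was added after seeing the data, as were the within-strain count of 19 (15 to 22) and the 56 wider genes below 0 (45 to 60).

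Members called after ligation numbered 1, and 4 with an intensity trend, 2 with the offset at the 40th percentile, 0 with no filter or quantile normalization, and 0 to 1 leaving out an array. All genes called numbered 16, and 66 with a mean-signal filter, 104 with the trend, 65 with the higher offset, 10 with median scaling, 1 with no filter or quantile normalization, and 0 to 68 leaving out an array. With the trend, Hspa1a, Dnajb1 and Hsph1 joined Hspa1b. On day 3, 1 member was called with the mean filter, trend or higher offset (0 otherwise), and of all genes 13, 26 and 10, with 1 taking every probe set, 4 averaging probe sets and 0 to 0 leaving out an array. On day 30, 1 member was called under the same 3 settings and 0 to 1 leaving out an array; of all genes 5, 24 and 8, 0 with median scaling or no filter, and 0 to 186. On day 60, 1 member was called with the trend; of all genes 27, 75 and 27, 9 with median scaling, 0 with no filter, and 0 to 30. Between strains 0 members were called throughout; of all genes 30, 43 and 30, 32 taking every probe set, 10 averaging them, 11 with median scaling, 8 with no filter, and 7 to 14. Of the strain calls 77.8% were lower in MRL/MpJ, 71.4% after quantile normalization and 63.6% after median scaling.

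Directions turned when an array was left out, with these ranges over the arrays left out. The Hspa8 strain difference ran from -0.10 (no day 60 array of one strain) to 0.19, and Hspa8 on day 60 from -0.62 to 0.16 (C57BL/6 day 60 left out). Hsp90aa1 ran from -0.95 to 0.0096 on day 3 and from -0.92 to 0.040 on day 60, and Hspb1 on day 30 from -0.28 to 0.096; each upper end left out untreated C57BL/6, and Hspb1 stood at 0.042 without C57BL/6 day 30. The strain difference in ligation effect for Hsph1 ran from -0.17 (a day 30 array left out) through -0.05 (a day 60 array) to 0.29. Averaging probe sets gave -0.10 for Hspa8. Without an untreated array that difference could not be fitted.

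No paired analysis was possible because each group had 1 array and the labels carry no replicate numbers. With 2 untreated arrays, one per strain, every difference rests on both, and signals near the offset are compressed. Arrays of 1 group each give no error within a group.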
